A study of Homo sapiens and Mus musculus with 27 samples.

Results

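Tropomyosins and tropomodulins are the proteins that coat actin filaments and cap their slow-growing ends. Of their genes, 7 were followed here: the tropomyosin genes TPM1, TPM2, TPM3 and TPM4 and the tropomodulin genes TMOD1, TMOD2 and TMOD3. They were found by gene name, ignoring case, and all 7 were present among 59453 gene names in each human count table and among 55367 in the mouse table. RNA was sequenced from 27 libraries in 3 experiments, each with 3 groups of 3 replicates. Human LM2 cells, a lung-seeking derivative of the MDA-MB-231 breast cancer line, were labelled control with WT genotype, WT MKL1 overexpression with WT genotype, or caMKL1 overexpression. Mouse 4T1 mammary carcinoma cells were labelled with the same 3 groups. A separate set of LM2 cells, all of WT genotype, was labelled negative for LifeAct (control), low in LifeAct expression or high in it. The genotype labels of the caMKL1 replicates read caMKL1, caMKL2 and caMKL3, while their titles and treatments read caMKL1. The labels do not describe the constructs, their promoters or any clone, and do not say whether the replicates were separate cultures, so the p-values measure only the spread between these samples, which may be technical.

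Tropomyosins are coiled-coil dimers that polymerise head to tail along both grooves of an actin filament and set which motors and severing proteins can reach it. TPM1 and TPM2 give rise to the long forms of muscle and stress fibres as well as to shorter forms, while TPM3 and TPM4 supply most tropomyosin in many non-muscle cells. Tropomodulins bind the pointed end of the filament together with the terminal tropomyosin. TMOD1 is the form of striated muscle and red blood cells, TMOD2 is the neuronal form and TMOD3 is the widespread one. MKL1, also called MRTF-A and encoded by MRTFA, is held in the cytoplasm by monomeric actin and, when released, acts with serum response factor (SRF) at promoters that carry a CArG box. LifeAct is a short peptide that binds filamentous actin and is used to image it.

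The human promoters were searched for the CArG box because it is the SRF binding motif. RefSeq start sites on GRCh38.p14 gave 12 windows of 300 bases for the 7 genes, each from 250 bases before to 50 after a start. An exact CArG box was present in 1 of the 12 windows, at TPM4, against 1.29% of all 35116 promoter windows of this length. It began 173 bases upstream of a TPM4 start on chromosome 19, and the stretch around it is printed with the motif in capitals.
TPM4 chr19:16067325-16067414, plus strand: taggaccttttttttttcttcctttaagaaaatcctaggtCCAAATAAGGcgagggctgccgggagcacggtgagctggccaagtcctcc

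Boxes with 1 mismatch were found in 4 further windows, at TPM4, TMOD1 and TMOD3, against 17.9% of all windows. They are shown because TPM4 and TMOD1 are followed closely below and because 3 of them lay in a single TMOD1 window. That window was 35.3% GC, the lowest among the windows of the family, and the other TMOD1 window, at 83.3% GC, held none. The part of base content in these near matches was not tested. The capitals mark the near match.
TPM4 chr19:16076290-16076319, plus strand: agcgctttctCCAAATAAGTcccgaaaagg
TPM4 chr19:16076793-16076822, plus strand: cctcgggccgCCTTTTTACGccctcggacg
TMOD1 chr9:97500930-97500952, plus strand: aatCCAAAATAAGacgttttcct
TMOD1 chr9:97501015-97501044, plus strand: gaataaaccaCCTAAAGTGGtttgttctga
TMOD1 chr9:97501057-97501086, plus strand: aaaaaaaaagCCTTTTAAGAacttgggtct
TMOD3 chr15:51829456-51829485, plus strand: tcggggaagtCCATAGTAGGtacttccacg

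The windows of TPM1, TPM2, TPM3 and TMOD2 held neither form of the box. The TEAD motif GGAATG (in 14.03% of all windows), the AP-1 motif TGACTCA (4.95%) and the CCAAT box (34.6%) were searched on both strands and were in none of the 12 windows. A missing match says only that these letters are not in this window. Mouse promoters were not analysed here.

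Library totals ran from 22147429 to 32147377 counts in the LM2 experiment, 21896459 to 29370432 in 4T1 and 15581289 to 23678322 in LifeAct. Selection of polyA RNA was used for LM2 and 4T1, and removal of ribosomal RNA for LifeAct, so levels are not compared across experiments. The introduced gene followed the labels: MRTFA ranged from 10.2 to 11.5 CPM (read counts scaled to a common library size) in LM2 controls, 140 to 181 with MKL1 and 175 to 257 with caMKL1, and mouse Mrtfa from 37.0 to 41.6, 2087 to 2199 and 596 to 679. In the LifeAct experiment, where it was not introduced, MRTFA was 28.3 ± 2.67 CPM (SD, n = 3) in negative, 33.6 ± 3.18 in low and 40.9 ± 2.42 in high cells. All 6 breast carcinoma markers were at 1 CPM or more in all 9 groups. In LM2 caMKL1, mitochondrial genes took 7.76% of the counts of replicate 1 and 13.4% and 13.6% of those of replicates 2 and 3. Replicate 1 thus stood apart from its group. It lay within the range of the other LM2 groups (7.73% to 8.94% in controls, 6.18% to 9.865% with MKL1), and replicates 2 and 3 lay above them.

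Per kb of exon, TPM4 was the first of the family in control cells, and the order of the other genes differed by line. In CPM per kilobase (kb) of deposited exonic length, a scale that depends on the length chosen, LM2 controls ran TPM4 71.9 ± 1.53, TPM3 41.9 ± 0.359, TMOD3 21.9 ± 1.49, TPM1 6.14 ± 0.237, TPM2 3.91 ± 0.426, TMOD2 1.04 ± 0.0719 and TMOD1 0.112 ± 0.0293 (SD, n = 3). No neighbours in that order overlapped. In 4T1 controls Tpm4 was again first at 129.5 ± 4.31 CPM per kb, but Tpm1 was second at 85.4 ± 2.89, ahead of Tpm3 at 40.9 ± 0.692 and Tmod3 at 18.9 ± 0.488. Tmod2, Tmod1 and Tpm2 followed at 0.328 ± 0.0306, 0.276 ± 0.0640 and 0.251 ± 0.0327, and their ranges overlapped in turn. LifeAct-negative LM2 cells had TPM4 at 55.2 ± 0.590, TPM3 at 17.7 ± 0.205 and TMOD3 at 10.5 ± 0.439 CPM per kb, the last overlapping TPM2 at 9.66 ± 0.914.

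**Figure D1:**
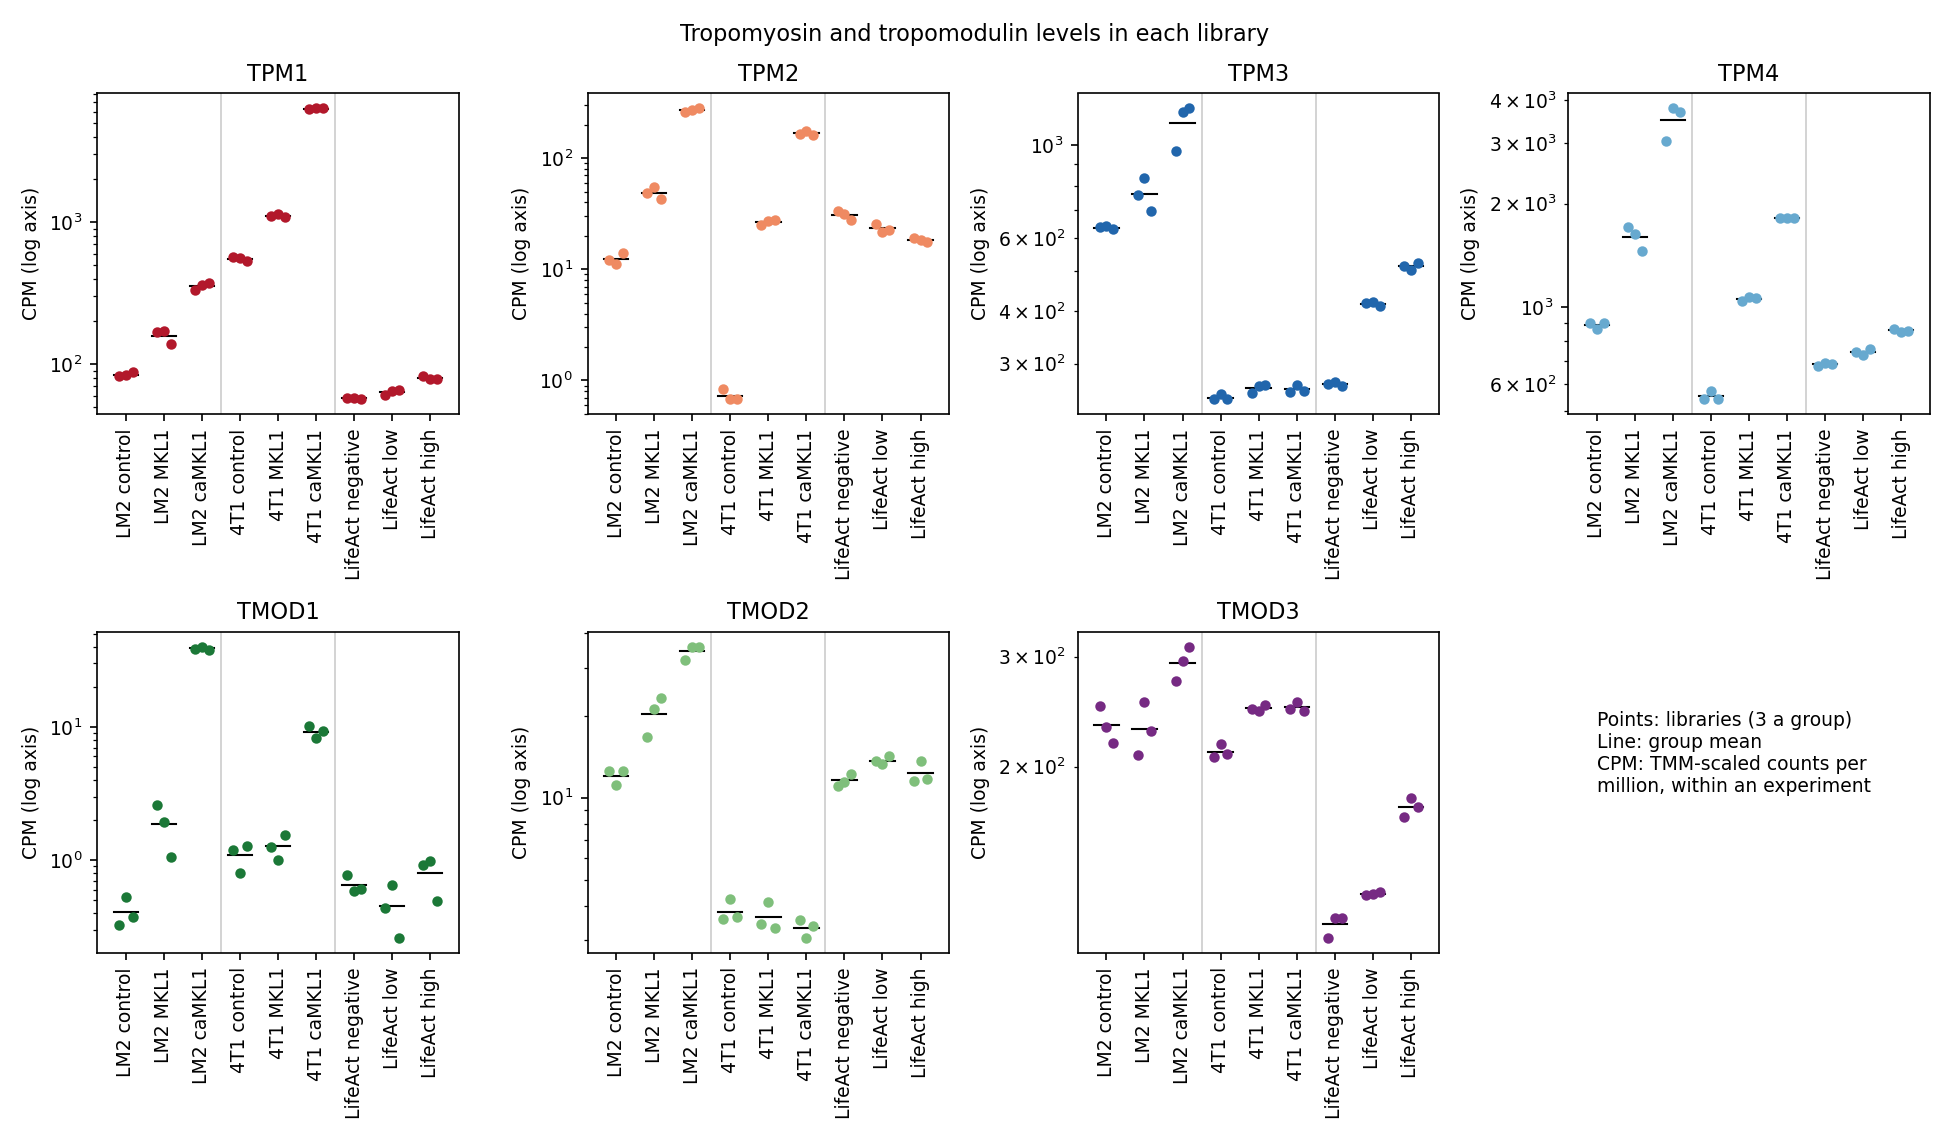
Level of each gene in each library, as CPM on a log axis, with 3 libraries and their mean (line) for each of the 9 groups; grey lines separate the experiments, which are not scaled to each other. TPM1, TPM2 and TPM4 step upward from control to MKL1 to caMKL1 in both lines, TPM2 steps downward and TPM3 upward with LifeAct, and mouse Tpm3 stays between 246 and 267 CPM.

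In LM2 cells with MKL1, 5 of the 7 genes rose and none fell, where 7.25% of all 18893 tested genes rose and 4.74% fell. TPM2 and TMOD1 had the highest ratios to control, TPM1, TPM4 and TMOD2 rose less than 2-fold, and TPM3 and TMOD3 did not pass the test. With caMKL1 all 7 rose, against 31.9% of all tested genes higher and 33.0% lower. All 7 were also higher with caMKL1 than with MKL1, where 32.6% of genes were higher and 31.9% lower. Changes are log2 ratios ± SE from edgeR's quasi-likelihood test, and p-values are adjusted over all tested genes by Benjamini-Hochberg. Scaled to library totals in place of TMM, 918 genes were higher and 1241 lower with MKL1 (main analysis 1369 and 896). Without 1 of the 3 control libraries these counts were 781 to 821 and 325 to 445, and without MKL1 replicate 1 or 2 there were 590 or 571 lower, while the count of members called was 5 in each case. The same scaling gave 4137 higher and 9271 lower with caMKL1 (main analysis 6030 and 6241), moved the median log2 ratio of all tested genes from -0.05 to -0.46, and gave 4425 higher and 8635 lower between caMKL1 and MKL1 (main analysis 6150 and 6029).

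TPM4 was the most abundant of the family in LM2 cells. Its levels were 900.4, 868 and 901 CPM in the controls, 1707, 1636 and 1453 with MKL1, and 3042, 3784 and 3690 with caMKL1. The 3 groups did not overlap, and caMKL1 replicate 1, the library with the lower mitochondrial share, was the lowest of its group. The log2 ratio to control was 0.85 ± 0.110 with MKL1 (adjusted p = 9.5e-05) and 1.98 ± 0.113 with caMKL1 (adjusted p = 3.7e-10), or 2.08 with that replicate left out. TPM1 read 82.0, 83.4 and 88.2 CPM in controls, 168, 170.5 and 139 with MKL1, and 332, 361 and 375 with caMKL1. Its groups did not overlap either, and its ratios were close in size to those of TPM4, at 0.91 ± 0.0974 (adjusted p = 1.3e-05) and 2.07 ± 0.10 (adjusted p = 4.5e-11).

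TPM2, which encodes the beta-tropomyosin of muscle and stress fibres, changed more than the other tropomyosins. It read 12.2, 11.2 and 13.9 CPM in controls, 48.9, 54.8 and 43.2 with MKL1, and 262.5, 270.2 and 283 with caMKL1. No control library came near an MKL1 library, and no MKL1 library near a caMKL1 library. TPM2 was 3.92-fold higher with MKL1 (log2 1.97 ± 0.110, adjusted p = 1.1e-08) and 21.8-fold higher with caMKL1 (log2 4.45 ± 0.118, adjusted p = 9.6e-14).

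TPM3, the other tropomyosin of non-muscle cells, changed least of the 4. It read 636.5, 639 and 628.5 CPM in controls, 760.3, 837 and 697 with MKL1, and 967, 1202 and 1228 with caMKL1. All MKL1 libraries were above all controls, yet the log2 ratio of 0.27 ± 0.108 did not pass (adjusted p = 0.124). It passed with MKL1 and caMKL1 replicate 1 both left out (0.27, adjusted p = 0.0172) and with no filter on low counts (0.32, adjusted p = 0.0171). With caMKL1 TPM3 rose by 0.84 ± 0.109 on the log2 scale (adjusted p = 5.4e-06), and by 0.94 without replicate 1.

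Among the capping proteins TMOD1 was hardly detected in LM2 controls, with 8, 14 and 10 counts in the 3 libraries. Its levels were 0.325, 0.532 and 0.377 CPM in controls, 2.60, 1.95 and 1.05 with MKL1, and 38.5, 40.1 and 38.1 with caMKL1. The MKL1 libraries differed widely among themselves, and the caMKL1 libraries were nearly alike. TMOD1 was 4.42-fold higher with MKL1 (log2 2.14 ± 0.333, adjusted p = 0.000508) and 93.1-fold higher with caMKL1 (log2 6.54 ± 0.273, adjusted p = 8.4e-12). On the opposite strand the last exons of TSTD2 cover 45.3% of the exonic bases of TMOD1, and the headers give no strand setting. TSTD2 itself was 18.8 ± 0.720 CPM in controls, 15.99 ± 0.559 with MKL1 and 25.6 ± 1.65 with caMKL1 (SD, n = 3), and its log2 ratio with caMKL1 was 0.45 ± 0.105 (adjusted p = 0.00152).

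TMOD2 read 12.5, 11.1 and 12.6 CPM in LM2 controls, 16.7, 21.1 and 23.2 with MKL1, and 32, 35.8 and 35.8 with caMKL1. Its groups did not overlap, with log2 ratios of 0.76 ± 0.130 (adjusted p = 0.00123) and 1.52 ± 0.130 (adjusted p = 4.7e-08). TMOD3, by far the most abundant tropomodulin, read 249.6, 232 and 218 CPM in controls, 209, 253 and 228 with MKL1, and 274, 295 and 311 with caMKL1. The MKL1 libraries lay on both sides of the controls, and the caMKL1 libraries were all above them. With caMKL1 TMOD3 was 1.26-fold higher (log2 0.33 ± 0.0963, adjusted p = 0.00661). That direction turned to -0.08 (adjusted p = 0.408) when libraries were scaled by their totals.

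Between caMKL1 and MKL1 in LM2 cells, TMOD1 stood furthest apart, 21.1-fold higher with caMKL1 (log2 4.40 ± 0.221). TPM2 was 5.56-fold higher (log2 2.48 ± 0.106), TPM1 2.24-fold (1.16 ± 0.0971) and TPM4 2.19-fold (1.13 ± 0.111). TMOD2, TPM3 and TMOD3 followed at 1.70-fold, 1.48-fold and 1.28-fold. The TMOD3 difference was not called with library totals (log2 0.02, adjusted p = 0.875).

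In 4T1 cells with MKL1, Tpm1, Tpm2, Tpm4 and Tmod3 rose and Tpm3 passed the test by a small margin, so 5 of 7 were higher and none lower, where 19.3% of all 16297 tested genes were higher and 15% lower. With caMKL1 Tpm1, Tpm2, Tpm4, Tmod1 and Tmod3 rose and none fell, against 36.2% of genes higher and 35.8% lower. With library totals this became 4 higher and 2 lower, as Tpm3 and Tmod2 were called lower and Tmod3 was not called. Between caMKL1 and MKL1, 4 were higher and none lower (Tpm1, Tpm2, Tpm4 and Tmod1), against 33.8% and 32.8% of genes. Here too library totals gave 4 higher and 2 lower, with Tpm3 (log2 -0.13, adjusted p = 0.00049) and Tmod3 (-0.11, adjusted p = 0.00201) called lower. Scaled to library totals, 2324 genes were higher and 3868 lower with MKL1 (main analysis 3144 and 2449), 4528 and 7580 with caMKL1 (5900 and 5841), and 4534 and 6690 between caMKL1 and MKL1 (5505 and 5353).

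Tpm1 was the most abundant of the family in 4T1 cells with caMKL1. It read 569.7, 558 and 533 CPM in controls, 1114, 1133 and 1090.0 with MKL1, and 6235, 6329 and 6366 with caMKL1. The groups did not overlap and replicates differed little. Tpm1 was 2.01-fold higher with MKL1 (log2 1.01 ± 0.0273, adjusted p = 7.4e-19) and 11.4-fold higher with caMKL1 (log2 3.51 ± 0.0294, adjusted p = 7.4e-30).

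Tpm2 was at 22, 21 and 18 counts in the 3 controls of 4T1, the lowest of the family there. Its levels were 0.841, 0.674 and 0.678 CPM in controls, 25.2, 27.5 and 27.6 with MKL1, and 166, 174 and 163 with caMKL1. Each group stood far above the one before. The fold over control was 36.6 with MKL1 (log2 5.19 ± 0.106, adjusted p = 2.7e-21) and 229 with caMKL1 (log2 7.84 ± 0.0801, adjusted p = 3.1e-28).

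Tpm4 read 541, 574 and 544 CPM in 4T1 controls, 1046, 1074 and 1061 with MKL1, and 1820.0, 1814 and 1819 with caMKL1. Its log2 ratios were 0.94 ± 0.0269 (adjusted p = 2.1e-18) and 1.72 ± 0.0273 (adjusted p = 1.1e-24), with no overlap between groups. Tpm3 by contrast read 246, 253.5 and 246.5 CPM in controls, 255, 265 and 267 with MKL1, and 257, 266 and 257 with caMKL1. Both construct groups lay just above the controls and overlapped each other. Its log2 ratio of 0.08 ± 0.0294 with MKL1 passed (adjusted p = 0.0462), but not without MKL1 replicate 2 or 3, control replicate 1 or 3, or any 1 of the caMKL1 libraries that share the fit, where the adjusted p ran from 0.0518 to 0.206. With library totals it was 0.01 (adjusted p = 0.821), and with no filter on low counts 0.07 (adjusted p = 0.174). Its log2 ratio of 0.06 ± 0.0293 with caMKL1 did not pass (adjusted p = 0.0539). It was called higher by DESeq2 (0.08, adjusted p = 0.0208), with DESeq2 size factors (0.0193), by limma voom (0.0443), with the replicate number as a block (0.0424) and without caMKL1 replicate 1 or 3 or control replicate 2 (0.0420 to 0.0457), and called lower with library totals (-0.12, adjusted p = 0.000912).

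Tmod1 in 4T1 cells read 1.19, 0.803 and 1.28 CPM in controls, 1.26, 1.01 and 1.55 with MKL1, and 10.1, 8.23 and 9.26 with caMKL1. Control and MKL1 libraries overlapped, and the caMKL1 libraries were all higher. The log2 ratio was 0.23 ± 0.241 with MKL1 (adjusted p = 0.512) and 3.09 ± 0.172, or 8.49-fold, with caMKL1 (adjusted p = 6.7e-14). Tstd2, which overlaps 32.6% of the exonic bases of Tmod1 on the other strand, moved the other way with caMKL1 (log2 -0.39 ± 0.0583, adjusted p = 2.2e-06). Tmod2 read 3.59, 4.24 and 3.65 CPM in controls, 3.44, 4.15 and 3.33 with MKL1, and 3.56, 3.06 and 3.39 with caMKL1, and passed in neither comparison (log2 -0.07 ± 0.145 and -0.21 ± 0.146, adjusted p = 0.753 and 0.207). With library totals it was called lower with caMKL1 (-0.39, adjusted p = 0.0204).

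Tmod3 read 207, 217 and 209 CPM in 4T1 controls, 247, 245 and 251 with MKL1, and 247, 253 and 245 with caMKL1. All libraries of both constructs were above all controls, and the constructs overlapped. The log2 ratios were 0.23 ± 0.0294 (adjusted p = 1.1e-06) and 0.24 ± 0.0293 (adjusted p = 1.4e-07), and with library totals the second fell to 0.05 (adjusted p = 0.111). Beside these changes, the summed level of 5 skeletal muscle markers ran from 0.225 to 0.344 CPM in 4T1 controls, 2.58 to 3.93 with MKL1 and 64.7 to 66.4 with caMKL1. With caMKL1 Ckm supplied 58.9 CPM of it on average, Des 6.70 CPM (0.231 in controls) and Myh3 0.221 CPM. Myod1 was at 0 in all 9 libraries and Myog was at 0.0148 CPM with caMKL1. Their part in these results was not tested.

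Between caMKL1 and MKL1 in 4T1 cells, Tmod1 was 7.23-fold higher with caMKL1 (log2 2.85 ± 0.174), Tpm2 6.27-fold (2.65 ± 0.0462), Tpm1 5.67-fold (2.504 ± 0.0281) and Tpm4 1.71-fold (0.78 ± 0.0266). Tpm3, Tmod2 and Tmod3 did not pass there (log2 -0.01 ± 0.0295, -0.13 ± 0.151 and 0.005 ± 0.0294).

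**Figure D2:**
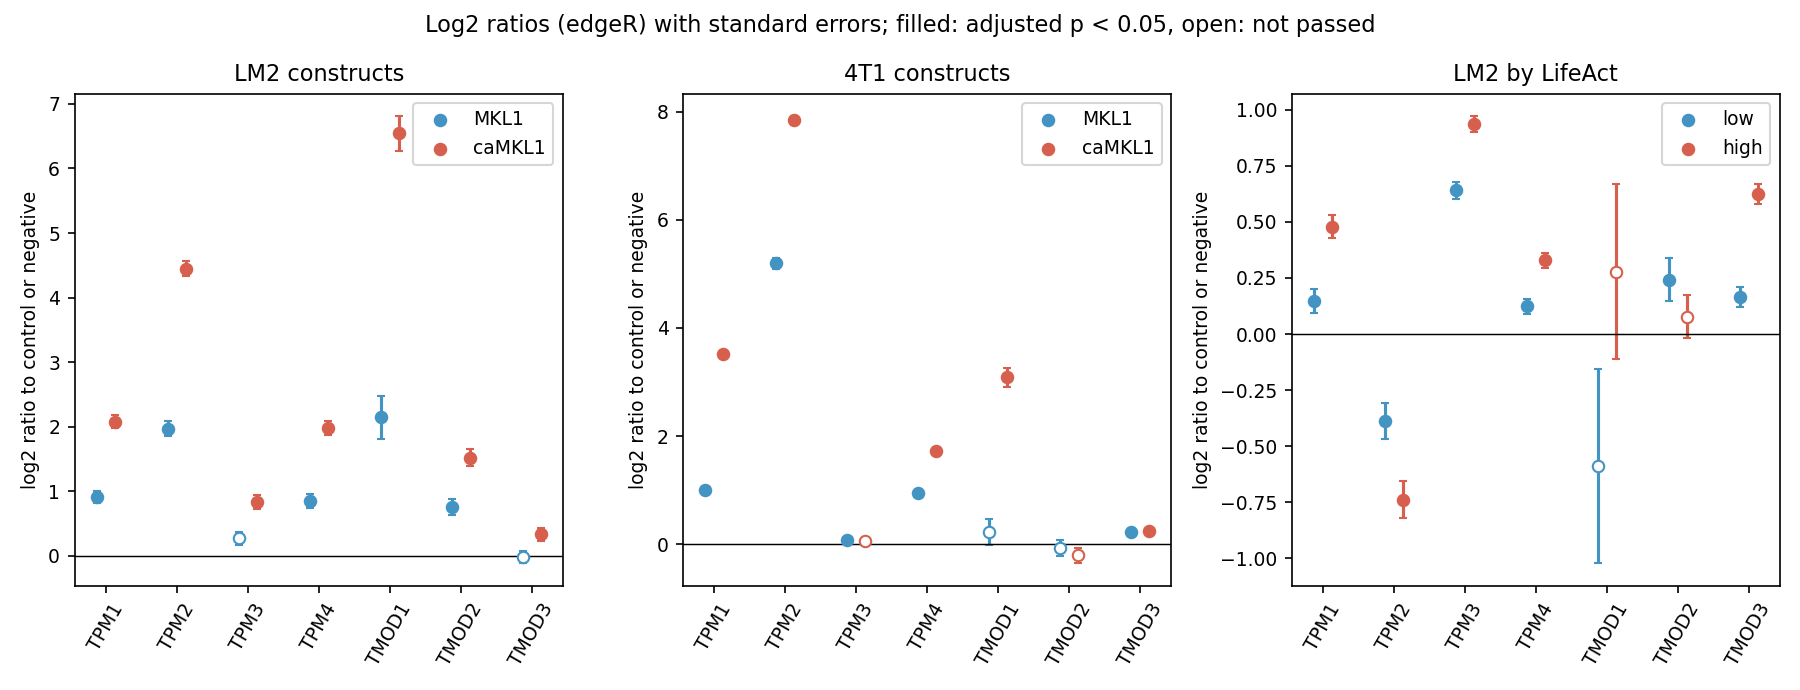
Log2 ratio of each gene to control (left, LM2; middle, 4T1) or to LifeAct-negative cells (right), with standard errors from edgeR; filled points passed an adjusted p of 0.05 and open points did not, and the vertical scales differ. The caMKL1 ratio exceeds the MKL1 ratio for TPM1, TPM2 and TPM4 in both lines, and TPM2 is the gene below 0 that passed with LifeAct.

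The responses of the 2 lines were compared by an interaction term over the 18 libraries of both, in 13113 genes matched by symbol. Of the 7 genes, 1 responded more and 2 less to MKL1 in 4T1 than in LM2 cells, where 9.32% of matched genes responded more and 10.6% less. With caMKL1, 2 responded more and 4 less, against 30.7% and 29.6%. With library totals, 5554 matched genes were called more and 2640 less responsive to caMKL1 in 4T1 (main analysis 4028 and 3882), and 1265 and 1029 to MKL1 (1222 and 1392). The 4T1 Mrtfa level with MKL1 was above that with caMKL1, and the reverse held for mean MRTFA in LM2 cells, where the ranges overlapped, so the level of the introduced gene differed between lines as well.

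TPM2 responded more in 4T1 to both constructs, by 3.20 ± 0.182 (MKL1, adjusted p = 2.6e-10) and 3.26 ± 0.178 (caMKL1, adjusted p = 1.1e-12) on the log2 scale. TPM1 responded more in 4T1 to caMKL1 (1.31 ± 0.110, adjusted p = 1.1e-09) and showed no detectable difference with MKL1 (0.07 ± 0.109, adjusted p = 0.719). TPM3 responded less in 4T1 to caMKL1 (-0.90 ± 0.118, adjusted p = 8.8e-07). TPM4 also passed with caMKL1 (-0.39 ± 0.114, adjusted p = 0.00525), but with library totals its difference was -0.04 (adjusted p = 0.758).

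The striated muscle tropomodulin TMOD1 responded less in 4T1, by -1.93 ± 0.448 with MKL1 (adjusted p = 0.00425) and -3.59 ± 0.386 with caMKL1 (adjusted p = 5.2e-08). TMOD2 did the same, at -0.86 ± 0.199 (adjusted p = 0.00437) and -1.85 ± 0.199 (adjusted p = 5.1e-08). The difference for TMOD3 was 0.22 ± 0.106 (adjusted p = 0.148) and -0.23 ± 0.106 (adjusted p = 0.0700), passing for neither construct. It was called for MKL1 with library totals (0.26, adjusted p = 0.0409) and without LM2 MKL1 replicate 2 (0.32, adjusted p = 0.0225). For caMKL1 it was called without LM2 MKL1 replicate 1 (-0.20, adjusted p = 0.0401) or LM2 caMKL1 replicate 1 (-0.29, adjusted p = 0.0178), and turned to 0.12 (adjusted p = 0.22) with library totals.

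**Figure D3:**
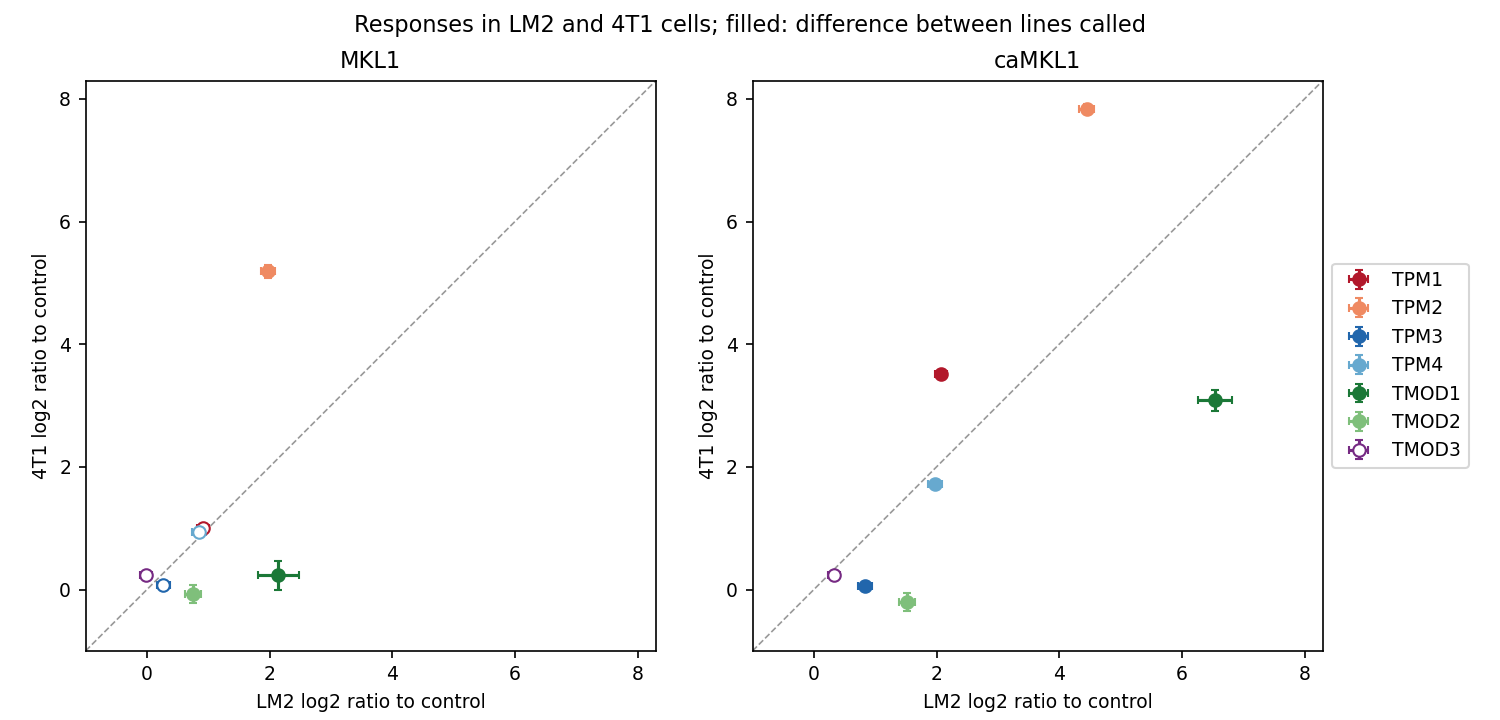
Log2 ratio to control in LM2 cells (horizontal) and 4T1 cells (vertical) for MKL1 (left) and caMKL1 (right), with standard errors; filled points are genes whose response differed between lines in the interaction test, and the dashed line marks equal responses. TPM2 lies above the line for both constructs (LM2 1.97 and 4.45, 4T1 5.19 and 7.84), and TMOD1 and TMOD2 lie below it.

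The make-up of the tropomyosin pool, as each gene's share of the summed tropomyosin CPM per kb, differed between lines and constructs. The pool was 124 ± 1.70 CPM per kb in LM2 controls, 207 ± 17.0 with MKL1 and 469 ± 46.0 with caMKL1, and in 4T1 it was 256 ± 6.08, 472 ± 6.21 and 1499 ± 10.45 (SD, n = 3). With 3 libraries against 3, the exact two-sided permutation test cannot go below p = 0.1, which each of these increases over control reached with no overlap. In LM2 cells TPM4 held 58.1% ± 0.459, 62.6% ± 1.53 and 60.3% ± 1.28 of the pool in the 3 groups. TPM3 went from 33.8% ± 0.717 to 24.4% ± 1.10 and 15.9% ± 0.519, and TPM2 from 3.16% ± 0.307 to 7.44% ± 0.434 and 18.3% ± 1.39. TPM1 stayed near 5% (4.96% ± 0.172, 5.59% ± 0.177 and 5.53% ± 0.256).

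In 4T1 cells Tpm4 held 50.6% ± 0.848 of the pool in controls, 52.6% ± 0.241 with MKL1 and 28.4% ± 0.237 with caMKL1, while Tpm1 held 33.4% ± 0.928, 36.3% ± 0.501 and 64.9% ± 0.270. Tpm3 went from 15.97% ± 0.189 to 9.13% ± 0.184 and 2.85% ± 0.0517, and Tpm2 from 0.0983% ± 0.0132 to 1.95% ± 0.0862 and 3.85% ± 0.133. Per kb the leading gene thus changed from Tpm4 to Tpm1. As shares of the tropomyosin counts, with no division by length, Tpm1 and Tpm4 were level in controls (40.83% and 40.77%) and Tpm1 led with MKL1 (45.2% against 43.1%) and with caMKL1 (73.8% against 21.2%). The deposited exonic lengths join all annotated transcripts of a gene, and the shares depend on them: in LM2 caMKL1 cells TPM2 was 18.3% of the pool per kb, 5.20% of the tropomyosin counts and 7.66% when divided by the median length of its protein-coding transcripts. Some directions depend on them too. From MKL1 to caMKL1 in LM2 cells the TPM4 share went from 62.2% to 66.5% of counts and from 56.5% to 59.8% per median transcript length, where per kb it was lower with caMKL1, and the TPM1 share went from 6.18% to 6.79% of counts.

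The tropomodulin pool was smaller and changed less: 23.1 ± 1.49, 23.9 ± 2.20 and 41.2 ± 1.94 CPM per kb over the LM2 groups and 19.5 ± 0.460, 22.9 ± 0.319 and 24.9 ± 0.252 over the 4T1 groups. TMOD3 held 95.0% ± 0.404 of it in LM2 controls, 90.5% ± 0.451 with MKL1 and 67.03% ± 1.31 with caMKL1. TMOD1 held 0.488% ± 0.137, 2.16% ± 1.03 and 25.7% ± 1.34. This pool sums TMOD1, TMOD2 and TMOD3 and leaves out TMOD4, so the shares are of these genes only. TMOD4 was at 0.971, 0.921 and 1.15 CPM over the LM2 groups, where TMOD1 was at 0.411, 1.87 and 38.9 CPM. In 4T1 cells Tmod1 held 1.42% ± 0.353, 1.41% ± 0.283 and 9.36% ± 0.965, with Tmod3 at 89.5% ± 1.05 or more in each group. The tropomyosin pool divided by the summed level of 6 actin genes, both per kb, was 0.170 ± 0.00404, 0.106 ± 0.0232 and 0.0570 ± 0.00791 in LM2 cells and 0.214 ± 0.00855, 0.140 ± 0.000518 and 0.0922 ± 0.00145 in 4T1 cells. Actin was therefore higher relative to tropomyosin with each construct than in controls, with no overlap (exact permutation p = 0.1 for each). Near-identical actin genes can share reads, so the parts of that sum are less certain than the sum.

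**Figure D4:**
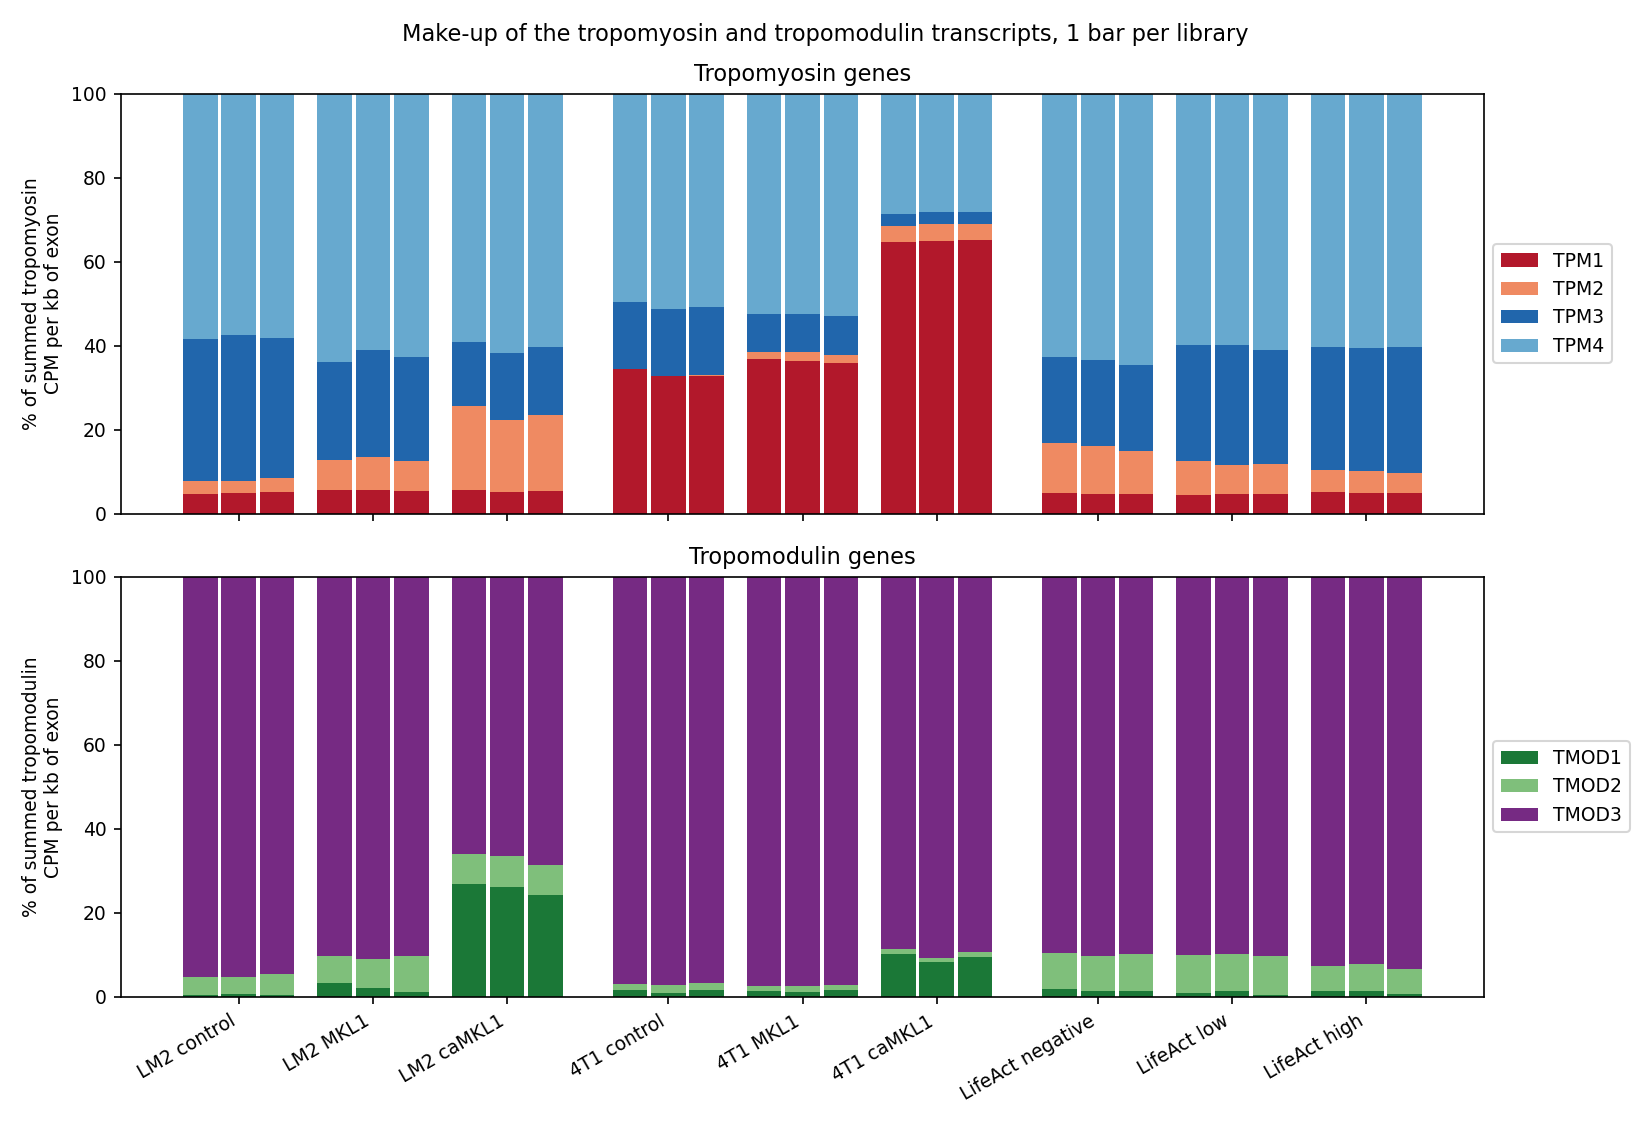
Share of each gene in the summed tropomyosin (top) and tropomodulin (bottom) level, in percent of CPM per kb of exon, with 1 bar per library and 3 libraries per group. TPM2 widens and TPM3 narrows in LM2 caMKL1, Tpm1 takes 64.9% of the 4T1 caMKL1 pool, and TMOD1 takes 25.7% of the LM2 caMKL1 tropomodulin.

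Across the LifeAct groups of LM2 cells the family moved in both directions. TPM3 and TMOD3 rose most, TPM1 and TPM4 rose less and TPM2 fell in cells high in LifeAct. In low cells 5 of 7 genes were higher and 1 lower than in negative cells, where 26.0% of all 21869 tested genes were higher and 23.6% lower. In high cells 4 were higher and 1 lower (background 36.0% and 35.2%), and 4 were higher and 1 lower in high than in low cells (26.6% and 23.7%). Between high and low cells, scaling by library totals gave 4655 genes higher and 6437 lower (main analysis 5828 and 5176). The labels do not say how the groups were obtained, nor whether LifeAct levels were measured in these cultures.

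TPM3 read 268, 271 and 265 CPM in negative cells, 418, 422 and 412 in low cells and 513, 503 and 521 in high cells. The groups were far apart beside their spread. Its log2 ratio to negative was 0.64 ± 0.0366 in low cells (adjusted p = 1.4e-14) and 0.94 ± 0.0366 in high cells (adjusted p = 4.4e-19), and high exceeded low by 0.30 ± 0.0358 (adjusted p = 6.3e-08). TPM2 ran the other way, at 33.2, 31.4 and 27.6 CPM in negative, 25.8, 21.8 and 22.8 in low and 19.2, 18.2 and 17.7 in high cells. No library crossed into the next group. TPM2 fell by 0.39 ± 0.0798 in low cells (adjusted p = 0.000173) and by 0.74 ± 0.0826 in high cells (adjusted p = 5.4e-09) on the log2 scale.

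TPM4 read 675, 689 and 685 CPM in negative, 742.5, 729 and 759 in low and 866, 851 and 856 in high cells, with log2 ratios of 0.12 ± 0.0342 (adjusted p = 0.00371) and 0.33 ± 0.0342 (adjusted p = 1.3e-09). TPM1 read 58.1, 57.9 and 56.4 CPM in negative, 61.1, 64.3 and 65.4 in low and 83.1, 78.8 and 78.1 in high cells. Groups of both genes stepped upward without overlap. For TPM1 the ratio in high cells was 0.48 ± 0.0515 (adjusted p = 2.5e-09). In low cells it was 0.15 ± 0.0522 (adjusted p = 0.0200), a call that was lost without low replicate 2 (adjusted p = 0.0599) or low replicate 3 (adjusted p = 0.108).

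TMOD3 read 106, 114 and 114.5 CPM in negative, 125, 125 and 126 in low and 166, 178 and 172 in high cells, with log2 ratios of 0.17 ± 0.0451 (adjusted p = 0.00315) and 0.63 ± 0.0445 (adjusted p = 4.1e-13). TMOD2 read 11.1, 11.5 and 12.2 CPM in negative, 13.6, 13.3 and 14.2 in low and 11.6, 13.6 and 11.8 in high cells. Its high libraries lay across both other groups. It rose in low cells (log2 0.24 ± 0.0943, adjusted p = 0.0336), but not by DESeq2 (adjusted p = 0.0896) nor without low replicate 1 or 3 or negative replicate 1 or 2 (adjusted p from 0.0634 to 0.120), and it did not pass in high cells (0.08 ± 0.0964, adjusted p = 0.478). TMOD1 had 6 to 21 counts a library in this experiment and passed in no comparison (log2 -0.59 ± 0.433 in low and 0.28 ± 0.390 in high cells, adjusted p = 0.272 and 0.533).

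Between high and low cells TMOD3 rose further (log2 0.46 ± 0.0437), as did TPM1 (0.33 ± 0.0502) and TPM4 (0.21 ± 0.0341), and TPM2 fell by a further 0.35 ± 0.0836. TMOD1 and TMOD2 did not pass (0.87 ± 0.408 and -0.16 ± 0.0917, adjusted p = 0.0781 and 0.137). TMOD1 was called without high replicate 3 (1.11, adjusted p = 0.0386) or low replicate 2 (1.21, adjusted p = 0.0414), and TMOD2 with library totals (-0.24, adjusted p = 0.0322).

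The tropomyosin pool was 86.7 ± 1.03, 99.6 ± 1.17 and 114.7 ± 1.27 CPM per kb in negative, low and high cells (SD, n = 3). TPM3 held 20.4% ± 0.0484, 27.7% ± 0.634 and 29.5% ± 0.421 of it, TPM2 11.1% ± 0.963, 7.41% ± 0.610 and 5.04% ± 0.184, and TPM4 63.7% ± 0.958, 60.3% ± 0.661 and 60.4% ± 0.198. Beside these values, 4 endothelial markers summed to 96.5 to 99.9 CPM in negative, 35.4 to 37.1 in low and 13.4 to 15.6 in high cells. PECAM1 made up most of it, at 92.5, 29.9 and 7.47 CPM on average. VWF was at 3.36, 2.54 and 2.03 CPM and CDH5 at 0.324, 0.174 and 0.142, while KDR ran the other way at 2.38, 3.43 and 4.94. The 5 fibroblast markers summed to 34.1 to 37.1, 26.5 to 28.5 and 19.9 to 23.1 CPM, of which PDGFRB went from 24.2 to 15.7 and 9.15 while COL1A1 read 11.2, 11.6 and 12.3 and the other 3 were below 0.3 CPM. The part of other cells in the LifeAct results was not tested, and in bulk RNA fewer cells of a type and less RNA per cell cannot be told apart.

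The nearest relatives of the tropomodulins are the leiomodins, which start new actin filaments. Of 4 relatives (LMOD1, LMOD2, LMOD3 and TMOD4), 3 rose and none fell in LM2 caMKL1, where 31.9% of all tested genes rose and 33.0% fell. Their median log2 ratio was 2.44 against -0.05 over all tested genes. LMOD1, the smooth muscle leiomodin, was 0.217 ± 0.206 CPM in LM2 controls, 7.06 ± 0.768 with MKL1 and 262 ± 33.6 with caMKL1, above TMOD1 in both construct groups, on the CPM scale. LMOD2 was 0.0649 ± 0.0235, 0.0936 ± 0.0678 and 0.869 ± 0.187 CPM, and LMOD3 fell with MKL1 (log2 -1.44 ± 0.414, adjusted p = 0.0342) and rose with caMKL1 (1.23 ± 0.325, adjusted p = 0.00364). LMOD3 read 0.527, 0.188 and 1.24 CPM on average in control, MKL1 and caMKL1, so both genes stayed at low levels. In 4T1 cells 2 relatives were tested. Lmod1 was 0.165 ± 0.0237, 1.41 ± 0.550 and 117 ± 1.61 CPM over control, MKL1 and caMKL1, and Tmod4 did not pass (log2 0.22 ± 0.216 with caMKL1, adjusted p = 0.378). In LifeAct high cells LMOD3 fell (log2 -0.81 ± 0.351, adjusted p = 0.0400) and TMOD4 did not pass.

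All 6 actin genes rose with MKL1 and with caMKL1 in both lines. Of all tested genes, 7.25% rose with MKL1 and 31.9% with caMKL1 in LM2 cells, and 19.3% and 36.2% in 4T1 cells. ACTA1 in LM2 cells was near the floor, at 0.0794 CPM in controls, 0.342 with MKL1 and 0.554 with caMKL1. ACTB went from 2310.0 ± 48.5 CPM in LM2 controls to 22350.0 ± 952 with caMKL1, and Actb from 2594 ± 109.6 to 14540.0 ± 387.5. The smooth muscle actin ACTA2 went from 0.681 ± 0.176 to 2120.0 ± 90.1 CPM, and Acta2 from 0.416 ± 0.174 to 9423 ± 276.5. The smooth muscle ACTG2 and cardiac ACTC1 went from 0.0127 CPM each in LM2 controls to 3861 ± 589 and 2403 ± 666 with caMKL1. With LifeAct, ACTB and ACTG1 rose in high cells (log2 0.56 ± 0.0371 and 0.52 ± 0.0348), and ACTA2 read 2.35 ± 0.589 CPM in negative and 2.54 ± 0.304 in high cells (adjusted p = 0.702).

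A list of 24 genes for partners and rivals of tropomyosin on actin held troponins, calponins, caldesmon, transgelins and myosin light chains. It also held myosin heavy chains, fascin (FSCN1) and the alpha-actinins ACTN1 and ACTN4. Of 16 tested in LM2 cells, 12 rose and 4 fell with caMKL1, where 31.9% of all tested genes rose and 33.0% fell (median log2 1.10 against -0.05). Of 23 tested in 4T1 cells 18 rose and 3 fell, where 36.2% rose and 35.8% fell (0.98 against -0.02). Caldesmon, CALD1, which binds tropomyosin and actin, rose from 302 ± 12.2 to 5171 ± 568.5 CPM in LM2 cells (log2 4.10 ± 0.125, adjusted p = 3.4e-13). MYL9, a myosin light chain, rose by 5.36 ± 0.163 and TAGLN, transgelin, by 8.39 ± 0.298 there. In 4T1 cells Cnn1, calponin, went from 0.167 ± 0.0186 to 795 ± 4.36 CPM. Tnnt3, the fast skeletal troponin T that anchors troponin to tropomyosin, went from 1.06 ± 0.00805 to 263 ± 7.27 CPM (log2 7.95 ± 0.0666, adjusted p = 7.4e-30). In LM2 cells TNNT3 was at 0.0128 CPM with caMKL1 and was not tested. Another troponin T gene, TNNT1, fell there from 73.2 ± 9.92 to 25.3 ± 2.87 CPM with caMKL1 (log2 -1.53 ± 0.116, adjusted p = 9.9e-09). The others that fell in LM2 caMKL1 were FSCN1 (-1.55 ± 0.191), TAGLN2 (-0.93 ± 0.152) and MYH10 (-0.53 ± 0.118). In LifeAct high cells 8 of 16 rose and 5 fell, not far from the 36.0% and 35.2% of all tested genes (median 0.17 against -0.03). MYL9 (1.27 ± 0.0599), CNN2 (0.73 ± 0.0473) and MYL12B (0.65 ± 0.0393) were among those that rose.

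Of 25 factors that act at filament ends or on turnover, all 25 were tested in LM2 cells, where 18 rose and 4 fell with caMKL1, against 31.9% and 33.0% of all tested genes (median log2 0.63 against -0.05). In 4T1 cells 20 of 23 rose and 3 fell, against 36.2% and 35.8% (median 0.79 against -0.02). In LifeAct high cells 14 of 25 rose and 7 fell, against 36.0% and 35.2% (median 0.43 against -0.03). The severing and depolymerising proteins cofilin 2 (CFL2, log2 3.00 ± 0.114), destrin (DSTN, 2.70 ± 0.107) and gelsolin (GSN, 3.25 ± 0.159) rose in LM2 caMKL1, and Dstn (3.24 ± 0.0286) and Gsn (1.90 ± 0.0271) rose in 4T1 caMKL1. The actin monomer buffer thymosin beta 4 rose in 4T1 caMKL1 (Tmsb4x, 2.26 ± 0.0339) and did not pass in LM2 caMKL1 (TMSB4X, -0.18 ± 0.149, adjusted p = 0.292). In LifeAct high cells TMSB4X fell by 1.14 ± 0.0376 (adjusted p = 8.9e-21) and GSN fell by 1.34 ± 0.0483 (adjusted p = 6.0e-20) on the log2 scale. The formin DIAPH3 rose there by 1.65 ± 0.0588 (adjusted p = 4.8e-20). In LM2 caMKL1, by contrast, DIAPH3 fell (log2 -0.89 ± 0.101, adjusted p = 1.2e-06). The others that fell in LM2 caMKL1 were CAPZA1 (-0.39 ± 0.0971), DIAPH2 (-0.79 ± 0.142) and PFN2 (-1.89 ± 0.0973). Of the regulators themselves, SRF rose by 2.17 ± 0.111 in LM2 caMKL1 and Srf by 1.95 ± 0.0483 in 4T1 caMKL1, and SRF was 0.29 ± 0.0601 higher in LifeAct high cells (adjusted p = 0.000122). MRTFB, the relative of MRTFA, fell by 1.79 ± 0.107 in LM2 caMKL1 and fell by 0.33 ± 0.0622 in LifeAct high cells (adjusted p = 3.3e-05). In 4T1 caMKL1, by contrast, Mrtfb was called slightly higher than in controls (log2 0.1, adjusted p = 0.025).

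Likeness of pattern was described by Pearson's r over the 27 libraries, on log2 CPM centred within each experiment, among 10264 symbols tested in all 3 experiments. The points share groups and constructs, so these values are descriptions. Within the family TPM1, TPM2 and TPM4 were closest to each other (r from 0.914 to 0.919). TMOD1 followed TPM4 at 0.904, and TPM3 followed TMOD3 at 0.837 and TPM2 at 0.308. TMOD2 had its highest value with TMOD1, at 0.709.

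The genes nearest to each member in all 10264 were mostly outside the lists above. TPM4 was nearest to HACD1 (r = 0.993), ACTB (0.991) and MSRB3 (0.984). TPM1 was nearest to JPH2 (0.989), a junctophilin of striated muscle, then DUSP1 (0.987) and MCAM (0.985). TPM2 was nearest to ACTA2 (0.976), HSD17B11 (0.973) and LIMS2 (0.969). TPM3 was nearest to IPO5 (0.962), NVL (0.960) and INHBA (0.960). TMOD1 was nearest to NPTN (0.979), ACOT2 (0.978) and EFHD1 (0.972), TMOD2 to NRP2 (0.937), PCOLCE2 (0.925) and AKR1B10 (0.921), and TMOD3 to IL6ST (0.944), ATP13A3 (0.942) and PSME4 (0.940).

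In the deposited annotation the human genes lie on GRCh38 at chr15:63042632-63071915 (TPM1), chr9:35681992-35690056 (TPM2), chr1:154155304-154194648 (TPM3), chr19:16067021-16103002 (TPM4), chr9:97501180-97601743 (TMOD1), chr15:51751597-51816363 (TMOD2) and chr15:51829628-51947295 (TMOD3). The mouse genes lie on GRCm38 at chr9:67022590-67049406 (Tpm1), chr4:43514711-43523765 (Tpm2), chr3:90072649-90100902 (Tpm3), chr8:72130174-72153142 (Tpm4), chr4:46038935-46116032 (Tmod1), chr9:75565621-75611325 (Tmod2) and chr9:75497707-75559657 (Tmod3). TMOD2 and TMOD3 are neighbours in both genomes, yet in LM2 caMKL1 their log2 ratios were 1.52 and 0.33 and in 4T1 caMKL1 -0.21 and 0.24. TPM1-AS covers 19.1% of the exonic bases of TPM1 on the opposite strand and had 0 to 8 counts a library. Processed pseudogenes of TPM3 can take reads from it, and the most counted of them, TPM3P9, reached 4.52% of the TPM3 count in a LifeAct library and 1.72% in an LM2 library.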

How the data were processed

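The deposited values are whole counts of 150 bp read pairs per gene name, made by the authors with featureCounts 2.0.1 on STAR alignments against Ensembl release 103 (GRCh38) or 102 (GRCm38), per the file headers. No source used here gives the version of STAR. The submitters' processing notes also list DESeq2, hg38 and mm10. The headers show no strand setting. Exonic lengths are the other deposited value used. RNA was extracted with TRIzol and sequenced on a HiSeq 2500, per the labels' protocols.

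Each experiment was fitted with edgeR 4.0.16 (R 4.3.3): TMM scaling, filterByExpr (minimum count 10), a mean per group over 9 libraries, the quasi-likelihood F test and Benjamini-Hochberg adjustment over all tested genes, called at 0.05. CPM values are TMM-scaled. An SE is the log2 ratio over the root of F. The interaction was fitted over the 18 libraries of LM2 and 4T1. All 7 genes passed the filter in every experiment. No pair of replicates agreed within sampling noise (chi-square per gene 1.40 to 52.2 over 27 pairs). The scripts were tested on simulated data. All 27 count columns were matched to samples.

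The members and gene lists were chosen with earlier results of these data known. From each list, the text takes up to 3 tested genes with the smallest p in caMKL1 or LifeAct high cells against their reference. A few others are named to give the same gene in a second experiment, genes that fell, or levels near the floor. Alternatives were DESeq2 1.42.0, limma voom 3.58.1, other scalings, no filter on low counts, each library left out, the replicate number as a block, LM2 MKL1 and caMKL1 replicate 1 left out together, and other lengths for the shares. One of the cell type marker lists is not reported here.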

Additional observations from a re-analysis of the deposited data

Results flagged for a closer look

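The response to MKL1 differed between the 2 lines for 3 of the 7 genes, and the response to caMKL1 for 6. Each was a test of the difference itself (edgeR interaction term, 4T1 minus LM2, log2 scale, 9 libraries a line). In the same tests 2614 and 7910 of all 13113 matched genes were called. With MKL1 the differences were 3.20 for TPM2, -1.93 for TMOD1 and -0.86 for TMOD2. With caMKL1 they were 1.31 for TPM1, 3.26 for TPM2, -0.90 for TPM3, -0.39 for TPM4, -3.59 for TMOD1 and -1.85 for TMOD2. With caMKL1, 30.7% of all matched genes responded more and 29.6% less in 4T1, and with MKL1 9.32% and 10.6%. The TPM4 difference was not called with library totals (-0.04, adjusted p = 0.758). The other adjusted p-values stand with the comparison of the lines. Beyond the mitochondrial share and the refits without a library, groups of 3 libraries were not screened for single outlying samples. Chi-square per gene was 47.1 and 51.4 for pairs with LM2 caMKL1 replicate 1, and 3.11 for the other pair of that group. For pairs with LM2 MKL1 replicate 1 it was 52.2 and 36.2, and 21.3 for the other pair.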

How the results depend on the processing

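The number of the 7 genes called stayed within 1.5 times of the main count in every comparison under each alternative run. Of 1260 refits of single log2 ratios, 1203 kept direction and call, 20 lost the call, 18 gained it and 19 reversed, 18 of the 19 in ratios that had not passed. With library totals TMOD3 was -0.08 (LM2 caMKL1 against control), -0.11 (4T1 caMKL1 against MKL1, called lower) and 0.12 (caMKL1 interaction), and TPM3 was -0.12 (4T1 caMKL1 against control). TMOD3 in LM2 MKL1 was 0.005 by DESeq2 and by its size factors, 0.028 without the filter, 0.047 with both replicate 1 libraries left out and -0.063 to 0.048 with 1 library left out. DESeq2 and its size factors gave 0.002 for TPM3 between 4T1 caMKL1 and MKL1, which ran from -0.034 to 0.007 with 1 library left out. TMOD3 there was -0.016 without the filter and -0.007 to 0.027 with 1 library left out. Leaving out 1 library gave -0.181 to 0.011 for TMOD2 in 4T1 MKL1 and -0.001 to 0.14 for TPM1 in the MKL1 interaction. The change in the TPM1 share (percentage points, MKL1 and caMKL1 against control) was 0.626 and 0.564 per kb in LM2, 2.97 and 31.5 in 4T1, and -0.176 and 0.25 in LifeAct low and high. Without division by length it was 0.963 and 1.57, 4.35 and 32.9, and -0.433 and -0.084. With median transcript length, added after the lengths were seen, it was 1.501 and 2.32 in LM2 and -0.688 and -0.145 with LifeAct, so the LifeAct high change reversed under both. In LM2 MKL1 against control, 2092 of 40564 genes were higher and 808 lower with no low-count filter, against 1369 and 896 of 18893. With the replicate block 1856 of 18893 genes were higher and 1402 lower. The cause of these changes was not tested, apart from the lengths.

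With the replicate number as a block, 6 genes were called in 4T1 caMKL1 against control in place of 5 (Tpm3, adjusted p = 0.0424), and no other call among the 7 genes changed. In the labels samples share only a number. Same-numbered deviations correlated at 0.003 to 0.297 (LM2), -0.037 to 0.216 (4T1) and -0.033 to 0.002 (LifeAct). Out of 3 libraries each time, they correlated best with their own number in 12, 12 and 0 of 18 cases. Whether the number marks a shared batch was not tested. Low counts limit TMOD1 in LifeAct cells and in LM2 controls. They also limit Tpm2 and Tmod1 in 4T1 controls, at 61 and 90 counts summed over 3 libraries. These controls enter the ratios and line differences of both genes.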
